A study of Mus musculus with 62 samples.

Results

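The calsarcins and the stretch-responsive Z-disc genes were followed through the H3K27ac and H3K4me2 maps of mouse skeletal muscle. The set held 10 genes: the calsarcins Myoz1, Myoz2 and Myoz3, the muscle ankyrin repeat genes Ankrd1, Ankrd2 and Ankrd23, the LIM domain genes Csrp3 and Fhl1, and Xirp1 and Smpx. A region counted for a gene when the deposited annotation named that gene, which is the gene with the nearest transcription start site. These 10 genes, of 16880 genes with at least 1 H3K27ac region, held 538 of 596282 regions, namely 277 of 297760 H3K27ac regions and 261 of 298522 H3K4me2 regions in 16 lists.

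All mice were male C57BL/6 (C57BL/6J in the study's methods), and every histone mark was mapped in 2 libraries per group. The 4 sedentary wild type muscles were the extensor digitorum longus (EDL), quadriceps (Quad), soleus (Sol) and diaphragm (Dia). The quadriceps was also taken from sedentary mice (Sed) and from mice with free use of a running wheel (Ex), and from wild type littermates (Wt) and sedentary mice of genotype PGC1a Tg(+) (mTg), in which the muscle creatine kinase promoter drives the coactivator PGC1α in muscle fibers. EDL, Sol and Dia samples were pooled from several animals and each quadriceps sample came from 1 animal. A whole muscle holds fibers of several types and other cells, so that fewer cells of a type and less acetylation per cell cannot be told apart.

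The Z-disc anchors the thin filaments of neighbouring sarcomeres and is also a place where load is sensed. Calsarcins tether the phosphatase calcineurin to α-actinin there. Calcineurin in turn dephosphorylates NFAT factors, and this pathway is known for its part in the slow fiber program. Calsarcin-1 (Myoz2) belongs to heart and slow fibers, and calsarcin-2 (Myoz1) and calsarcin-3 (Myoz3) to fast fibers. The ankyrin repeat proteins bind titin at the I-band, and their genes are known to respond to stretch. Csrp3 encodes the muscle LIM protein, Fhl1 a LIM-only protein, Xirp1 the actin-binding protein Xin, and Smpx a small X-linked muscle protein. H3K27ac marks active promoters and enhancers, and H3K4me2 marks promoters and enhancers more widely.

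Of the 10 genes, 7 were in the promoter table drawn from RefSeq (GRCm38.p6, the patched form of mm10), Myoz1, Myoz3 and Xirp1 being the others. Windows that reached from 250 bases before to 50 after each start were searched on both strands for the MEF2 element, the CArG box, CAGCTG (the E-box form bound by myogenic factors), CATTCC (the TEAD element), AGGTCA (the nuclear receptor element), TGANTCA (the AP-1 element) and GGAAA (the NFAT core). The promoters of Myoz2, Fhl1 and Ankrd1 are shown for the muscle elements they hold, up to the base before the start, with matches to the first 5 of these motifs in capitals. The Myoz2 promoter (chr3:123034988-123035237, minus strand) held a MEF2 match at position -33 from the start and CAGCTG at -12. It also held GGAAA in 2 places, not capitalised, and TGANTCA at 30 bases after the start, beyond the stretch shown. The Fhl1 promoter (chrX:56779433-56779682, plus strand) held a CArG match at -102. The Ankrd1 promoter (chr19:36119845-36120094, minus strand) held CATTCC on the opposite strand in 2 places, read here as GGAATG.
Myoz2: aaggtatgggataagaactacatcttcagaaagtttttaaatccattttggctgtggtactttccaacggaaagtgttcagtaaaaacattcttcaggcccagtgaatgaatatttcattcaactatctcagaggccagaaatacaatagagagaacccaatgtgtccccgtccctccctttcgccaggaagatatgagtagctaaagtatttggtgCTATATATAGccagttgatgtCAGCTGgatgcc
Fhl1: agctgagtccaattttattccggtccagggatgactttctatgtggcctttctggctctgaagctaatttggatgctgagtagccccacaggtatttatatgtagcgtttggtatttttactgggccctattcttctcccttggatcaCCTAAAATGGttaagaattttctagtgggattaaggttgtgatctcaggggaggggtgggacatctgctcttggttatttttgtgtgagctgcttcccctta
Ankrd1: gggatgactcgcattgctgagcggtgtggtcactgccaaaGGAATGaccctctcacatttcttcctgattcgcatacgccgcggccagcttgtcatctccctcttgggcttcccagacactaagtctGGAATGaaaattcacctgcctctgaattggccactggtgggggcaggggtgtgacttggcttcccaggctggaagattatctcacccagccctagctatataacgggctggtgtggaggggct
Of all 32851 such windows, 3.19% held a MEF2 match, 1.63% a CArG match, 16.3% CAGCTG, 14.7% CATTCC, 16.3% AGGTCA, 7.81% TGANTCA and 61.3% GGAAA. Among the members' other windows, CATTCC was in both of Ankrd23 and AGGTCA in 1 of them. A match is a description of the letters and no evidence of binding.

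A pair of distal elements upstream of Myoz2 is shown. The first was picked in the strongest H3K27ac region named for this gene, as a site that overlaps an ATAC peak. The second was picked because its H3K27ac region was over 2-fold lower in Sol than in Quad, as given below. The first is a Quad peak of the Mediator subunit MED1 (chr3:123116172-123116382, plus strand) with AGGTCA on the opposite strand in 2 places, read as TGACCT. The second is an ATAC peak of Quad (chr3:123128927-123129121, plus strand), an accessible site at which CAGCTG and AGGTCA on the opposite strand overlap in the capitals.
Myoz2 MED1 peak: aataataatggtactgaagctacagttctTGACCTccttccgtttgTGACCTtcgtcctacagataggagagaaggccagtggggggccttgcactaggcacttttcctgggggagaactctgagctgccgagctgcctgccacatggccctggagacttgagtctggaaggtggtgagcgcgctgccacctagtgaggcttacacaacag
Myoz2 ATAC peak: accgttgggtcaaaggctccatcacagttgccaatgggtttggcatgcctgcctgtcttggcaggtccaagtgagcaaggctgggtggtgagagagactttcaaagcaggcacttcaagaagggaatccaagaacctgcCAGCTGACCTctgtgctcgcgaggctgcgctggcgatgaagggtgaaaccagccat
AGGTCA was in 10.8% of the 3593 Quad MED1 peaks and in 15.97% of the 44911 Quad ATAC peaks, and CAGCTG in 21.1% of the latter. Both elements lie in Synpo2 (chr3:123076519-123236168), which encodes the Z-disc protein synaptopodin 2, so that their assignment to Myoz2 rests on distance to a start site alone.

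Depth ranged from 11.7 to 24.2 M reads over the H3K27ac libraries and from 6.41 to 22.7 M reads over the H3K4me2 libraries, the lowest being the H3K4me2 library labelled mTg replicate 1. Levels are log2 tags per region, scaled here to 1 kb of width. They were computed within each list by the authors, so that levels of different lists were set side by side with the percentile among all regions of the list and were not tested. With 2 samples against 2, the smallest two-sided exact permutation p is 0.333. For the same site in 2 lists, regions were matched where each covered 50% or more of the other, and their difference was centred on the median of all matched regions. Such a pair was called over 2-fold apart when the centred difference passed 2-fold and the replicates did not overlap. Between the 3 sets of untreated Quad (Quad, Sed and Wt), 0.495% to 1.36% of matched H3K27ac regions and 0.739% to 2.69% of matched H3K4me2 regions were over 2-fold apart, which serves as the background between sets of mice. Genes of muscle fibers had an H3K27ac region in 8 to 11 of 11 cases per group, and heart markers in 0 to 2 of 5.

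Every one of the 10 genes had an H3K27ac region in each of the 8 groups, except Ankrd1, which had none in Ex and mTg. Lists held between 27 (Sed) and 42 (Wt) member regions. Of the 277, 82 held a start site of their own gene, 155 overlapped the gene and 122 lay outside it. The median width of the member regions was 1.57 kb in Wt and 4.37 kb in EDL. The strongest region of Myoz1, Myoz2, Myoz3, Ankrd23 and Xirp1 stood in the top 10% of all regions in EDL, Quad and Sol, and also in Wt and mTg. In Dia 3 genes had a region in the top 10%, in Sed 4 and in Ex 1, that of Myoz1. A strongest region is the maximum over a gene, and 23.1% (Dia) to 30.5% (Wt) of all genes with a region passed the same limit.

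**Figure D1:**
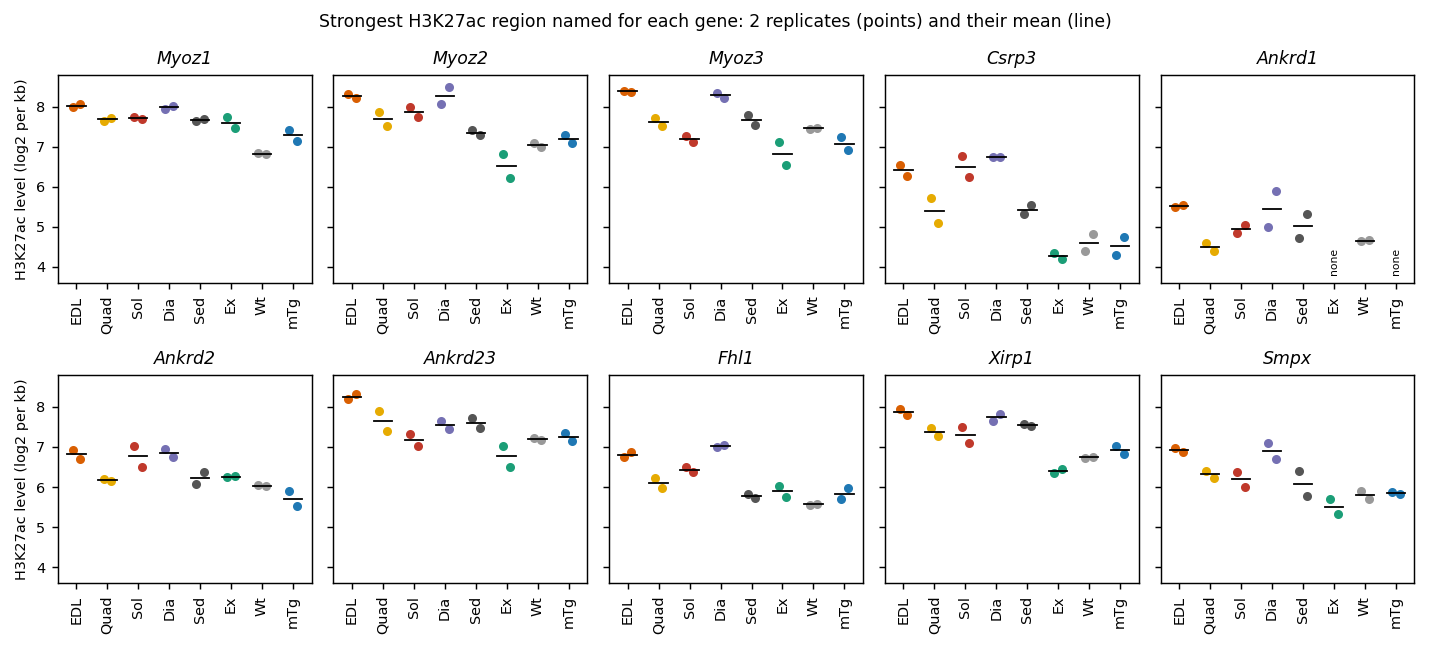
Strongest H3K27ac region of each gene in the 8 groups, as log2 tags per kb. Points are the 2 libraries of a group and lines their means. The calsarcins, Ankrd23 and Xirp1 sit highest, and Ankrd1 lowest in the 4 muscles with no region in Ex and mTg. The strongest region of a gene can be a different site in each group. In all 8 groups that of Myoz1 overlaps the neighbouring gene Usp54 and that of Myoz2 lies within Synpo2, both outside the named gene.

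Myoz1 (chr14:20649102-20656540, minus strand) was the calsarcin whose own gene was acetylated nearly throughout in EDL and Quad, both muscles of mainly fast fibers. H3K27ac regions covered 100% of the gene in EDL, 89.9% in Quad and 76.1% in Dia, and 48.4% in Sol. In EDL a single region of 10.2 kb (chr14:20649023-20659270) had levels of 7.48 and 7.77, and in Quad a region of 7.93 kb (chr14:20649853-20657779) had 7.49 and 7.70. In Sol the gene held 2 separate regions instead, with levels of 5.60 and 6.00 (chr14:20650547-20652667) and of 6.41 and 6.85 (chr14:20655064-20657322), each below both libraries of EDL and Quad. Coverage in Sol minus that in Quad was -41.5 percentage points, at the 1.17th percentile of the same difference over 12141 genes. H3K4me2 covered 92.8% of the gene in Quad and 100% in EDL, and 62.8% in Dia and 63.5% in Sol.

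The strongest region named for Myoz1 was another one, 15.4 kb from the start and beyond the gene's end, with levels of 7.94 and 8.02 in Dia, 7.98 and 8.06 in EDL, 7.74 and 7.70 in Sol, and 7.65 and 7.71 in Quad. It differed by -0.02 between Sol and Quad after centring. It overlaps Usp54 (chr14:20548912-20644491), a ubiquitin peptidase family gene, and holds predicted transcript starts of that gene (positions 20640838 and 20641626), so that its assignment to Myoz1 is uncertain.

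Myoz2 (chr3:123006206-123035003, minus strand) ran the other way. H3K27ac covered 52.1% of the gene in Sol, 28.3% in Dia, 22.6% in EDL and 8.76% in Quad. The Sol region over the start was 12.9 kb wide (chr3:123024758-123037623) with levels of 7.47 and 7.05. In Quad it was 2.66 kb wide (chr3:123033359-123036015) with 5.93 and 5.05, and in Dia 8.59 kb with 7.02 and 6.73. Both Sol libraries were above both Quad libraries in level. Because the widths differed by so much (1 width per group, since regions were called over both replicates), these regions could not be matched between Sol and Quad. The difference in coverage of 43.4 points stood at the 99.0th percentile over all genes. The other untreated quadriceps sets covered 3.64% (Sed) and 2.75% (Wt) of Myoz2, near the value of Quad. H3K4me2 covered 25.1% of the gene in Sol and 4.50% in Quad.

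Upstream of Myoz2, within Synpo2, lay 3 further H3K27ac regions that were matched between Sol and Quad. The strongest, at -78.7 kb from the start, measured 8.002 and 7.75 in Sol, 7.86 and 7.52 in Quad, 8.31 and 8.22 in EDL, and 8.06 and 8.49 in Dia, and between Sol and Quad its replicates overlapped after centring. The region at -55.5 kb was higher in Sol (7.49 and 7.32) than in Quad (6.29 and 6.65), by 0.87 after centring, and higher in Dia (7.79 and 7.44) by 0.68. The region at -95.5 kb, which holds the ATAC peak printed above, was lower in Sol (6.36 and 6.31) than in Quad (7.43 and 7.32). Its difference of -1.11 was over 2-fold. EDL measured 7.42 and 7.39 there. Neighbouring elements named for 1 gene thus went in opposite directions between Sol and Quad. Counting all of them, Myoz2 had 11 regions over 51.2 kb in Sol and 6 regions over 23.5 kb in Quad.

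**Figure D2:**
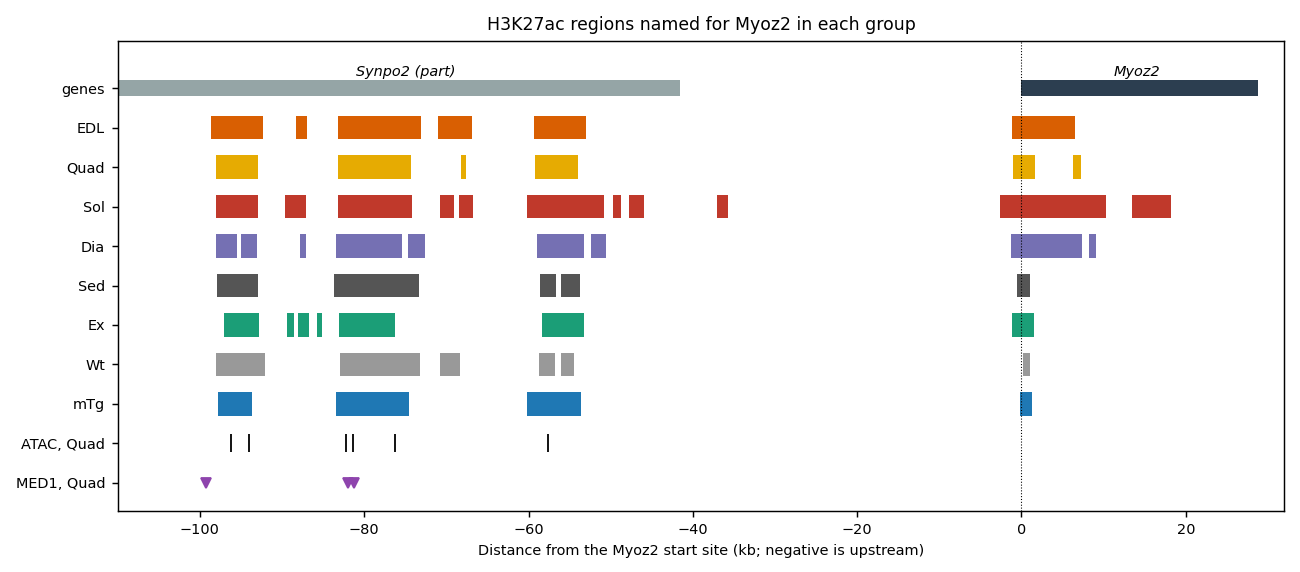
H3K27ac regions named for Myoz2 in the 8 groups, by distance from its start site in kb, drawn to scale below the 2 genes, with Quad ATAC peaks as ticks and Quad MED1 peaks as triangles. The region over the start is widest in Sol (12.9 kb), and the shared upstream regions lie within Synpo2.

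Myoz3 (chr18:60573717-60591716, minus strand) held its signal at and just before the start, in a region that reaches into the neighbouring gene Synpo. Its levels were 8.39 and 8.37 in EDL, 8.35 and 8.22 in Dia, 7.72 and 7.50 in Quad, and 7.26 and 7.11 in Sol. Sol was the lowest of the muscles, by 0.49 against Quad after centring, with replicates that did not overlap and a difference under 2-fold. EDL was higher than Quad by 0.43. H3K27ac covered 10.26% of Myoz3 in Quad and 3.57% in Sol. In H3K4me2 the element near -4.45 kb ranked at the 99.9th percentile of the Sol list (7.79 and 7.71) and at the 98.6th of the Quad list (7.42 and 7.64). By level, the Myoz1 gene and Myoz3 were thus lower in both Sol libraries than in both EDL and both Quad libraries, and the Myoz2 gene was higher, which was not tested.

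Csrp3 (chr7:48830398-48848051, minus strand) was covered over 52.6% of its length in Sol, 47.1% in Dia, 42.5% in EDL and 35.3% in Quad. Levels of its strongest region, which lay over the gene, were 6.76 and 6.23 in Sol, 6.74 and 6.75 in Dia, and 6.54 and 6.28 in EDL. In Quad the strongest region was another site at -5.52 kb, at 5.71 and 5.09. Sol overlapped with Dia and with EDL. An intronic region matched between EDL (6.54 and 6.28) and Quad (5.11 and 4.36) was over 2-fold higher in EDL, by 1.33. This call was lost without Quad replicate 2. The other quadriceps sets had little of the mark, with coverage of 4.61% in Sed, 7.32% in Ex, 16.6% in Wt and 13.7% in mTg, so that 3 untreated quadriceps sets spanned 4.61% to 35.3%. Its strongest region measured 5.31 and 5.54 in Sed, 4.35 and 4.196 in Ex, 4.397 and 4.82 in Wt, and 4.29 and 4.75 in mTg. The Sed and Ex regions are different sites within the gene, and those of Wt and mTg overlap in position and in level. The Ex value was at the 0.862th percentile of its list, the lowest of any member with a region.

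The ankyrin repeat genes differed among themselves more than between muscles. Ankrd23 (chr1:36530193-36536556, minus strand) lay in 1 broad region of 10.5 to 11.8 kb in each of the 4 muscles, which also covers the neighbouring gene Ankrd39. Its levels were 8.21 and 8.31 in EDL, 7.89 and 7.41 in Quad, 7.64 and 7.45 in Dia, and 7.33 and 7.02 in Sol. Against Quad the centred difference was 0.27 for EDL, -0.57 for Dia and -0.54 for Sol, each without overlap of the replicates and under 2-fold.

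Ankrd2 (chr19:42035917-42045111, plus strand), known for its expression in slow fibers, was covered over 46.6% in Sol, 34.1% in Dia, 24.2% in EDL and 16.4% in Quad. The region at its start measured 7.04 and 6.50 in Sol, 6.94 and 6.75 in Dia, 6.94 and 6.70 in EDL, and 6.23 and 5.97 in Quad. Quad was the lowest in every pair of libraries, while the other 3 overlapped. The centred difference from Quad was 0.60 for Sol. The coverage difference of 30.2 points between Sol and Quad was at the 98.3rd percentile over all genes. Its upstream regions lie in Ubtd1, a neighbouring gene.

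Ankrd1 (chr19:36111965-36119844, minus strand), which encodes the cardiac ankyrin repeat protein, had the weakest acetylation of the 10 in these 4 muscles. Its strongest region measured 5.49 and 5.55 in EDL, 5.003 and 5.89 in Dia, 4.83 and 5.05 in Sol, and 4.60 and 4.402 in Quad, and none stood above the 26.2nd percentile in these muscles. These are 4 different sites, at the start in EDL and at -48.3, -9.32 and -61.5 kb in Dia, Sol and Quad. Within the gene itself, H3K27ac covered 22.1% in EDL, 10.7% in Sol and 0% in Quad and Dia. Near the start it measured 4.72 and 5.32 in Sed and 4.63 and 4.66 in Wt. H3K4me2 was present in all 8 groups, at a site near -9.64 kb or at the start.

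Fhl1 (chrX:56731209-56793346, plus strand) held 10 regions in Sol, where Myoz2 held 11, and 9 in Quad, the most of any member there. H3K27ac covered 57.2% of the gene in Dia, 54.5% in Sol, 49.8% in EDL and 37.2% in Quad. A region around its internal start sites, which takes in the promoter printed above, was over 2-fold apart, at 6.50 and 6.36 in Sol (chrX:56778521-56788237) and 5.42 and 5.22 in Quad (chrX:56778532-56783768). The centred difference was 1.05. The Sol region also overlaps another Quad region with a start of Fhl1 (chrX:56785341-56789410), which was not part of this match. The Fhl1 call was lost without Sol replicate 1, without Quad replicate 2 and at an overlap of 80%. Xirp1 (chr9:120013755-120023598, minus strand) measured 7.94 and 7.81 in EDL, 7.66 and 7.83 in Dia, 7.50 and 7.11 in Sol, and 7.48 and 7.28 in Quad at its start. After centring, its replicates overlapped those of Quad in each of the other 3 muscles. Smpx (chrX:157698973-157752591, plus strand) likewise held 27.5% to 32.7% coverage across the 4 muscles, with levels between 6.00 and 7.09 at its strongest region, which was at the start in EDL, Sol and Dia and at 49.1 kb in Quad.

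**Figure D3:**
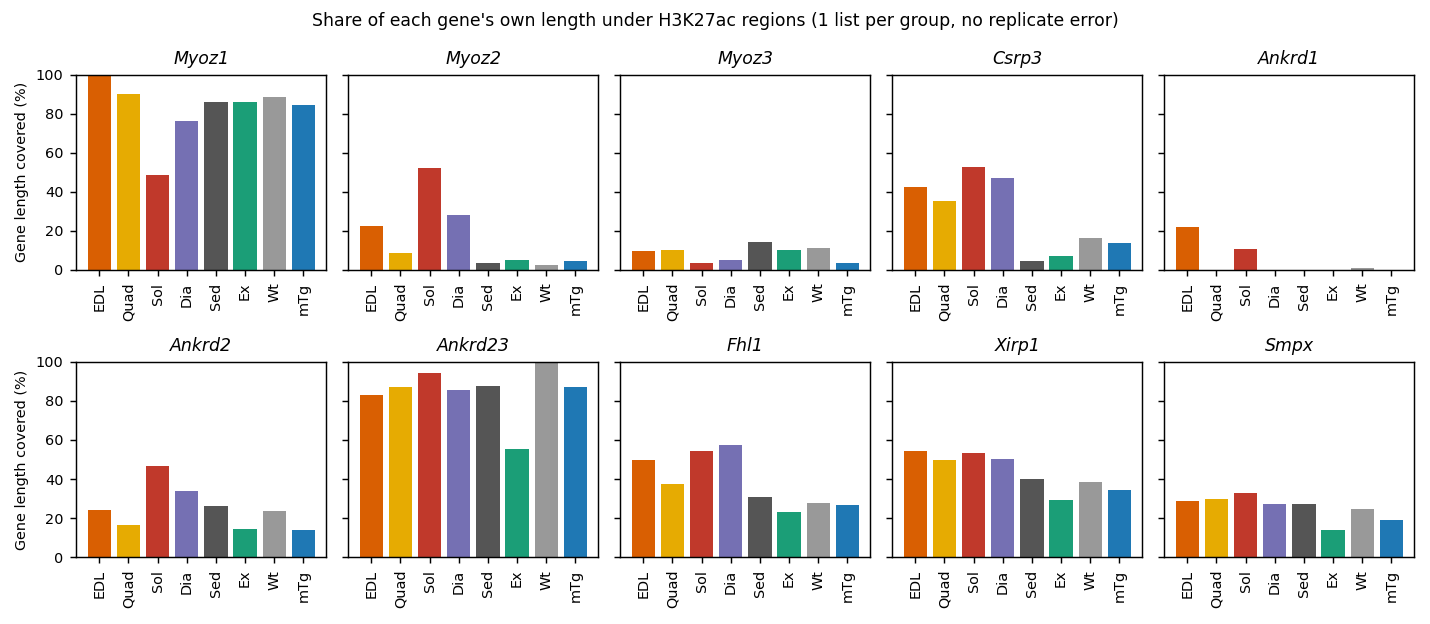
Percentage of each gene covered by its H3K27ac regions in the 8 groups. Myoz1 is lowest in Sol (48.4%) and Myoz2 highest there (52.1%), and Ankrd23 is above 80% in every group but Ex.

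Between Sol and Quad, 20 member regions were matched and 2 were over 2-fold apart (Fhl1 and the Myoz2 region at -95.5 kb), beside 3.74% of all 19463 matched regions. Replicates did not overlap for 14 of the 20, beside 60.8% of all. The median member difference was 0.05, with 10 above and 10 below 0, and the 5th and 95th percentiles of all regions were -0.78 and 0.67. EDL and Quad gave 1 call in 20 (Csrp3), beside 0.644% of all, with a median of 0.29 (0.13 without Quad replicate 2 and 0.16 without EDL replicate 1). Dia and Quad gave no call in 18, beside 4.26% of all. In H3K4me2, no member region was over 2-fold apart, in 17 for Sol and Quad (1.88% of all), in 19 for EDL and Quad (0.453%) and in 18 for Dia and Quad (1.58%). The nearest in Sol and Quad were Xirp1 at -0.92, Myoz3 at -0.88 and Fhl1 at 0.79. Coverage of the own gene was higher in Sol than in Quad for 8 of the 10 genes, beside 48.9% of 12141 genes. The member median was 9.01 points, where all genes had a median of 0 and a 5th to 95th percentile range of -15.4 to 14.9. In EDL coverage was likewise higher than in Quad for 7 of the 10, beside 59.6% of 12105 genes. The member median there was 7.50 points, beside 0.45 for all genes. In Dia it was higher than in Quad for 5 of 9 genes, beside 45.7% of 12191 genes, with a member median of 0.72 points. Between untreated sets the member median was 4.15 points for Quad and Sed, 3.38 for Quad and Wt and 1.38 for Sed and Wt. Coverage of Csrp3 in Quad minus that in Sed, 30.7 points, stood at the 98.8th percentile over all genes. The comparisons of Sol, EDL and Dia with Quad share the Quad libraries.

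Of 34 other Z-disc genes, 31 had matched H3K27ac regions in Sol and Quad, 70 in all. Lower in Sol by over 2-fold were regions of Actn3 (-2.16), the fast fiber α-actinin, of Capn3 (-1.83), a calpain bound to titin, and of Murc (-1.19), a caveola protein. A region of Neb, which encodes nebulin, was higher, by 1.54. These regions lay at 0.44 kb (Actn3), -20.1 kb (Capn3), 128 kb (Murc) and -26.6 kb (Neb) from the start. Such names rest on distance to a start site alone. The median of the 70 regions was -0.11. Myh7, the slow myosin heavy chain gene, had an H3K27ac region in Sol and Dia and none in EDL, Quad, Sed, Ex, Wt and mTg. Presence of a region did not follow fiber type over the 11 muscle fiber genes. All 11, Myh4 of fast fibers among them, had a region in Sol and in Dia. The fast troponin gene Tnnt3 had none in EDL, Quad and Sed, and the slow troponin gene Tnnt1 none in EDL and mTg.

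**Figure D4:**
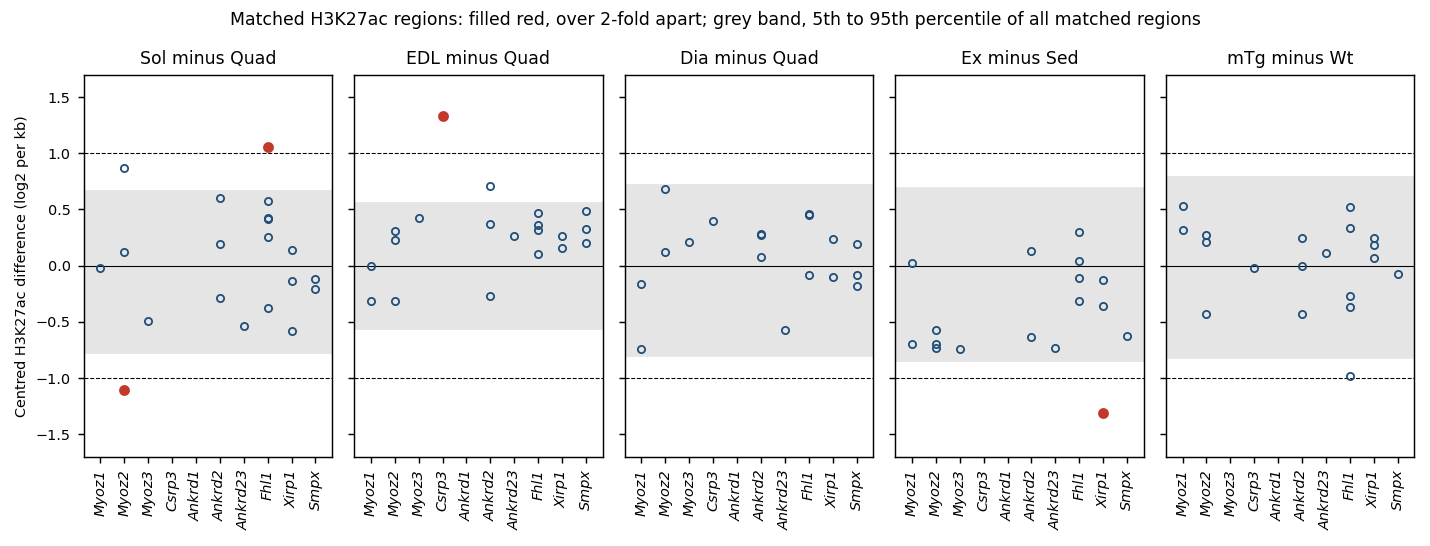
Centred log2 difference of each matched H3K27ac member region in 5 comparisons. Points are regions, filled where over 2-fold apart, and grey bands span the 5th to 95th percentile of all matched regions. Members of Ex and Sed lie mostly below 0, with a median of -0.57.

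In the quadriceps after wheel running, the matched H3K27ac regions of these genes were mostly lower than in Sed. Of 17 matched regions, 13 had a negative difference and 4 a positive one, with a median of -0.57 where the median of all 18426 is 0 by centring and their 5th percentile is -0.85. The member median was -0.32 without Sed replicate 1. Replicates did not overlap for 12 of the 17, beside 56.7% of all regions. A single region was over 2-fold apart, beside 3.17% of all. It was the start region of Xirp1, at 6.48 and 5.82 in Ex (chr9:120020695-120026347) and 7.57 and 7.54 in Sed (chr9:120020312-120025337), a difference of -1.31. Regions of Myoz3 (-0.74), Ankrd23 (-0.73), the strongest Myoz2 region (-0.73), the Myoz1 gene (-0.70), Ankrd2 (-0.63) and Smpx (-0.62) followed, each with both Ex libraries below both Sed libraries. Between the untreated sets Quad and Sed the median member difference was 0.18, with 15 above and 3 below 0. It was 0.097 for Quad and Wt (13 above, 4 below) and -0.19 for Sed and Wt (5 above, 13 below). No member region was called in these comparisons, in 18, 17 and 18 matched regions. Splits of sign as uneven as that of Ex and Sed thus also arose between untreated sets. The Fhl1 region at the first start of the gene differed by 0.30 between Ex and Sed, and the element past Myoz1 by 0.03.

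The strongest region of Myoz2 stood at the 89.6th percentile of the Sed list (7.40 and 7.30) and at the 73.8th of the Ex list (6.83 and 6.21). For the start region of Xirp1 the percentile was 93.2 in Sed and 61.03 in Ex, and for Myoz3 95.1 and 82.1. The Myoz1 element at Usp54 was at the 95.002nd and the 96.3rd. Own gene coverage was lower in Ex for 6 of 9 genes, beside 53.1% of 12214 genes, with the largest difference for Ankrd23, at 87.4% in Sed and 55.5% in Ex. That difference was at the 2.15th percentile of these genes. Among H3K4me2 regions no member was over 2-fold apart in 17, beside 0.0925% of all, and the median difference was -0.09.

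The deposited lists of exercise-modified regions (EMRs) were drawn from the union of Sed and Ex peaks and hold only regions that the authors had found to differ, so a test within them describes regions already chosen. The hypoacetylated list held 4 member regions among 2280, and the hyperacetylated list of 382 held none. In the hypoacetylated list 99.7% of regions passed limma's test here (two-sided, Benjamini-Hochberg adjusted over the list), and all 4 members did. Of the member regions of Sed, 4 of 27 (14.8%) were listed, beside 6.71% of all Sed regions. Of all Ex regions 1.1% were in the hyperacetylated list, and of the 30 member regions of Ex none was.

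The Ankrd23 region (chr1:36530993-36542831) measured 10.27 and 10.02 in Ex and 11.16 and 10.81 in Sed on the log2 scale of the list. It fell by 0.84 (SE 0.21, limma adjusted p = 3.472e-04), 1.79-fold. The upstream Myoz2 region (chr3:123108309-123118716), with the MED1 peak printed above, measured 9.86 and 9.59 in Ex and 10.66 and 10.43 in Sed. It fell by 0.82 (SE 0.21, limma adjusted p = 4.310e-04), 1.76-fold. These are among the broad and strong regions of the set. Neither shows overlap of Ex and Sed libraries, in a list chosen from these same libraries for differing.

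The 2 other listed regions were weaker and lay between genes. The one at -25.4 kb from Smpx (chrX:157672489-157674612) measured 5.42 and 5.49 in Ex and 6.08 and 6.17 in Sed, and fell by 0.67 (limma adjusted p = 0.00274). The one at -60.5 kb from Ankrd1 (chr19:36179301-36181426) measured 4.93 and 5.04 in Ex and 5.59 and 5.38 in Sed, and fell by 0.50 (limma adjusted p = 0.0208). The median over the list was -0.76, and by size of the difference the 4 regions ranked 642, 724, 1615 and 2207. The Ankrd1 difference was thus among the smallest of the list, and those of Ankrd23 and Myoz2 were larger than its median.

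**Figure D5:**
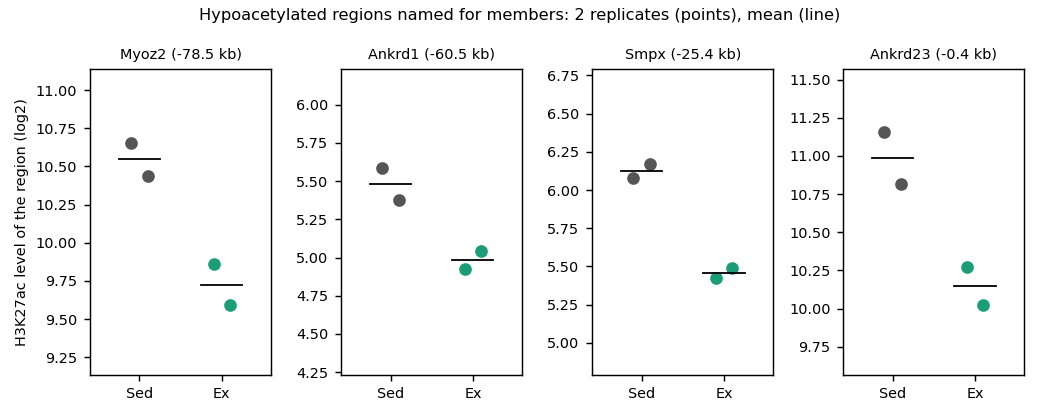
Log2 level of the 4 member regions in the hypoacetylated EMR list, with the 2 Ex and 2 Sed libraries as points and lines for the group means. In each region both Ex libraries lie below both Sed libraries, in a list chosen from these same libraries for differing.

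Other Z-disc genes were lower in Ex as well. They had 61 matched H3K27ac regions in 29 genes with a median difference of -0.68, and all 6 calls were lower. Among them were regions of Myot (-1.14), Actn2 (-1.08), Pdlim5 (-1.06), Trim63 (-1.02) and Xirp2 (-1.005). In the same order they lay at 10.5, 1.25, -27.3, 2.03 and 60.35 kb from the start. Of all 584 calls between Ex and Sed, 455 were lower. Of the 34 genes, 16 were in the hypoacetylated list with 32 regions, among them Ttn, Tcap, Des and Actn3, and 1, Fhl2, was in the hyperacetylated list. Of 11 muscle fiber genes, 3 (Myh1, Myh4 and Pvalb) were in the hypoacetylated list. That list named 1574 genes in all, beside 13460 genes with a region in Sed. The hyperacetylated list named 347, beside 13611 genes with a region in Ex.

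Other measures moved with the exercise difference. The median percentile among genes, by strongest H3K27ac region, was 61.2 in Sed and 24.8 in Ex for muscle fiber genes, 76.8 and 44.7 for the other Z-disc genes, and 50.1 and 34.5 for the members. It was 24.6 in Sed and 56.0 in Ex for endothelial markers, 24.7 and 44.4 for fibroblast markers, and 3.603 and 12.6 for macrophage markers. For smooth muscle markers it was 9.90 and 14.2. For satellite cell markers it was 5.12 and 1.43, with no region of Myf5 in Ex. The study's qPCR of immune, vascular, satellite cell and myogenic markers found the cell content of exercised muscle unchanged. A region was present in Sed and Ex for 5 and 4 of 5 endothelial markers, 4 and 5 of 5 fibroblast markers (Lum at 0 in Sed) and 4 and 5 of 5 macrophage markers (Cd68 at 0 in Sed). The percentiles spanned 16.1 to 39.3 in Sed and 0 to 72.3 in Ex for endothelium, 0 to 44.3 and 30.8 to 70.2 for fibroblasts, and 0 to 7.41 and 9.43 to 26.03 for macrophages. None of the endothelial, fibroblast, macrophage, smooth muscle and satellite cell markers was in an EMR list. Their part in the result was not tested.

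Between mTg and Wt, none of 19 matched H3K27ac member regions was over 2-fold apart, beside 4.64% of all 17444, and the median difference was 0.12. A region at an internal start of Fhl1 was nearest to the threshold, at 4.21 and 4.18 in mTg and 5.19 and 5.30 in Wt, a difference of -0.98. The element past Myoz1 was higher in mTg (7.42 and 7.15) than in Wt (6.84 and 6.81), by 0.53, and the Myoz1 gene by 0.31. H3K27ac coverage was lower in mTg for 9 of the 10 genes, with a member median of -4.13 points, where 63.1% of 12268 genes were lower and the median was -0.95. No member region was in the lists of PGC1α-modified regions (PMRs). Of all mTg regions 4.96% were in the hyperacetylated list and of all Wt regions 1.72% in the hypoacetylated list, against none of 32 and none of 42 member regions.

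In H3K4me2, 1 of 13 matched member regions was over 2-fold apart between the libraries labelled mTg and Wt, beside 0.724% of all. It was the Myoz2 site at -58.4 kb, with 2.94 and 4.02 in mTg and 5.26 and 4.98 in Wt, a difference of -1.35. Without mTg replicate 1, the shallowest library, this call was lost and a region of Fhl1 was called instead. Untreated sets gave member calls in H3K4me2 as well, for Myoz2 between Quad and Wt (1.17) and for Ankrd2 between Sed and Wt (1.03). The mTg list held H3K4me2 regions for 7 of the 10 genes, with none for Ankrd2, Ankrd23 and Csrp3, and covered 1.10% of Myoz1 where Wt covered 69.8%. This list also held the fewest regions of all, 27527 against 46944 in Wt, and rests on the library of 6.41 M reads. The part of depth in these absences was not tested.

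An H3K4me2 region of the same group overlapped 46.9% (mTg) to 80% (EDL) of the member H3K27ac regions, beside 44.9% to 71.5% of all regions in those lists. Accessibility and Mediator at the member regions were read from lists made from 1 library per muscle (MED1 and NFAT) or from pooled Quad samples (ATAC), and have no replicate check. An ATAC peak fell in 18 of 35 Quad member regions (51.4%), beside 57.2% of all Quad regions. The highest ATAC signals were in the Myoz1 gene (29.8, the 97.5th percentile of all ATAC peaks), in the Ankrd23 region (23.9, the 95.03rd) and in the upstream Myoz2 region (18.6, the 90.6th). The Csrp3 and Fhl1 peaks had low signals, between 3.99 and 5.44, and the Smpx peaks had 3.92, 4.11 and 7.66.

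MED1 peaks of the same muscle fell in 7 of 146 member regions (4.79%), beside 3.57% of all regions in the 4 muscles. Quad had 4 of 35 (11.4% beside 3.76%), Dia 2 of 36 (5.56% beside 4.16%), Sol 1 of 40 (2.5% beside 5.34%) and EDL none of 35 (beside 1.12%). The upstream Myoz2 region had 2 Quad peaks with scores of 11.5 (the 91.0th percentile, the site printed above) and 12.1, and a Dia peak with a score of 6.79 at the same site. Myoz2 was the only member with a MED1 peak inside its regions in more than 1 muscle. Others were the element past Myoz1 (10.9) and regions of Ankrd23 (8.94) and Csrp3 (6.39) in Quad, and the region past Xirp1 in Sol (14.6).

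NFAT peaks were searched because calsarcins bind calcineurin. In Sol 2 of 40 member regions held one (5% beside 3.02% of all), the Myoz2 region at -95.5 kb with a score of 16.4 and a region of Fhl1 with 14.3. In Quad none of 35 did, beside 0.0464% of all. The NFAT lists held 39661 peaks in Sol and 485 in Quad, so that muscle and library cannot be told apart.

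The pattern over the 8 groups was compared between genes by the percentile of each gene's strongest H3K27ac region among 16880 genes. The pattern of Myoz2, with a range of 54.3 points, was nearest to those of Nrap (mean absolute difference of 2.20 points over 8 groups) and Sdhb (3.13). In all 8 groups this pattern is that of a region within Synpo2, outside Myoz2. The strongest region within 1 kb of the Myoz2 gene stood at the 91.8th percentile of regions in Sol, the 45.7th in Quad and the 6.47th in Ex. Xirp1, with a range of 49.6, was nearest to its homologue Xirp2 (3.63) and to Ppp1r3c (4.04). Ankrd23, with a range of 41.6, was nearest to 1110034G24Rik (3.95) and Trdn (4.26), and Myoz3, with 40.1, to 2310065F04Rik (3.63) and Sun2 (3.67). For Csrp3 the nearest were Cldn4 and Gsg2, for Ankrd2 Mir7681 and Arhgap4, for Fhl1 Gm3646 and Sbk2, and for Smpx Mir101b and Fam205a1. By strongest region, Myoz1, with a range of 15.2 points, and Ankrd1, with 12.1, varied too little for the comparison. For Myoz1 that region was the element overlapping Usp54 in all 8 groups. The strongest region within 1 kb of the Myoz1 gene varied more, from the 96.6th percentile of regions in Quad to the 76.4th in Sol and the 72.5th in Ex. The percentiles of 1 group share its libraries and their depth.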

How the data were processed

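H3K27ac and H3K4me2 ChIP-seq, MED1 and NFAT ChIP-seq and ATAC-seq were mapped in 62 libraries, grouped as the labels give them, with 2 replicates per histone mark and group. Whether replicates came from separate litters or days is not given in the sources used here, and p-values measure the spread between these samples. Per the submitters' processing notes and the study's methods, the authors aligned ChIP-seq reads to mm10 with Bowtie (version 1.2 in the notes, another version in the methods) and ATAC-seq reads with Bowtie2, and called histone regions over both replicates against input with HOMER and DESeq2. The authors' tag columns are log2 values of DESeq2, taken here as regularized logarithms, which shrink differences and were computed within each list. The deposited p-value and log2 enrichment over input served as stricter thresholds. The deposited ATAC list gives a signal per peak and a ratio (fold) over the local background, and the deposited MED1 and NFAT lists give a score per peak. The 5 deposited interval lists of another build (mm9) were not used, and the authors' own fold changes between conditions were not used.

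Regions were assigned by the deposited gene name. Level per kb, matching at 50% reciprocal overlap, centring and coverage of the RefSeq gene were computed in Python 3.11.15 (numpy 2.4.6, pandas 2.3.3, pysam 0.24.0, matplotlib 3.10.9). Peaks counted as shared at an overlap of 1 bp. No counts were among the files, so no count model was fitted. limma 3.58.1 in R 4.3.3 was run within each of the 4 differential lists, two-sided at an adjusted p of 0.05, and was tested on simulated data. Its spread was pooled over regions, which gives 1 SE for all. Named genes were all members, and for each member whose percentile ranged over more than 20 points the 2 genes nearest in pattern. The members, lists and tests were chosen with earlier results of these data known. Total reads limit the precision of weak regions, and without counts no interval was computed. Alternatives were another overlap, no width scaling, no centring, stricter thresholds, leaving out each library and a replicate block. One of the calls among the other Z-disc genes is not reported here by name.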

Additional observations from a re-analysis of the deposited data

How the results depend on the processing

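Of 98 alternatives, 68 stayed within the limits set for each result and 30 moved. An authors' adjusted p-value under 0.001 left 177 of 277 H3K27ac and 133 of 261 H3K4me2 member regions. With a reciprocal overlap of 80%, the H3K27ac calls became 1 for Sol and Quad and 0 for EDL and Quad, and the H3K4me2 calls 0 for mTg and Wt. Without width scaling the H3K27ac calls were 5 for Sol and Quad, 2 for EDL and Quad, 1 for Dia and Quad and 4 for Ex and Sed, and the H3K4me2 calls 5 for Sol and Quad, 2 for Dia and Quad and 3 for mTg and Wt. Unscaled levels count the width of a region as well as its height. Without centring, which removes a median shift of 0.34 for EDL and 0.46 for Dia, the H3K27ac calls were 2 for EDL and Quad, 1 for Dia and Quad and 1 for mTg and Wt, and the H3K4me2 calls 2 for mTg and Wt.

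Leaving out each library in turn gave H3K27ac calls of 1 to 2 for Sol and Quad (2 without Quad replicate 2, both of them Myoz2), 0 to 1 for EDL and Quad, 0 to 1 for Dia and Quad (1, Myoz1, without Dia replicate 2), 1 to 2 for Ex and Sed (2 without Ex replicate 1 or Sed replicate 2) and 0 to 2 for mTg and Wt (1 without mTg replicate 2, 2 without Wt replicate 1). For H3K4me2 the calls were 0 to 1 for Sol and Quad (1 without Sol replicate 2 or Quad replicate 2), 1 for mTg and Wt (Fhl1 in place of Myoz2 without mTg replicate 1) and 0 for the other comparisons. The median member difference in H3K27ac, -0.57 for Ex and Sed, was -0.32 without Sed replicate 1, and that of 0.29 for EDL and Quad was 0.13 without Quad replicate 2 and 0.16 without EDL replicate 1. Leaving out 1 library moved the median of 0.05 for Sol and Quad to between -0.05 and 0.16, that of 0.12 for mTg and Wt to between 0.05 and 0.22, and the H3K4me2 median of -0.09 for Ex and Sed to between -0.24 and 0.04. In the EMR lists 3 to 4 of the 4 member regions passed limma's threshold, 3 without Ex replicate 1, Ex replicate 2 or Sed replicate 1. Centring each library on its median over the EMR list left 0, by construction, since nearly all regions of that list fell together, and removing the 25% of regions with the lowest levels left 2, the only ones still tested. With a replicate block 4 of 4 passed in the EMR lists and 0 in the PMR lists. Replicate numbers of Ex and Sed correlated at 0.11 in the hypoacetylated and 0.14 in the hyperacetylated list, over 2 pairs, which does not establish a pairing. Restricting strongest regions to within 1 kb of the own gene, an alternative chosen after seeing the data, left 1 gene in the top 10% in Dia, 0 in Ex and 3 in mTg. Whether depth decides if weak regions, such as those of Ankrd1, are listed was not tested.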
